A study of Mus musculus with 2 samples.

Results

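Potassium channel genes and the sulfonylurea receptor genes were examined in pancreatic islets of mice that lack Zbtb20 in their beta cells and in islets of their littermate controls. Zbtb20 encodes a transcription factor with zinc fingers, and the study sought its target genes in beta cells. Members were all probe sets with a single annotated gene whose symbol began with Kcn or was Abcc8 or Abcc9. This gave 172 probe sets for 86 genes, of 34945 probe sets for 18193 genes in all. One array was run on knockout-labelled islets and 1 array on control islets, and neither group had a replicate. Both groups were aged 2 to 3 months, with strain given as mixed background. Their islets were isolated with collagenase, picked by hand and kept in culture overnight before freezing. The labels call the control genotype wildtype. They do not name the Cre line, say how many animals gave RNA to an array, or say which exons of Zbtb20 were removed.

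The resting potential of a beta cell is held negative mainly by ATP-sensitive potassium channels. Glucose metabolism closes them, the membrane depolarises, voltage-gated calcium channels open and insulin is released. Each such channel joins a pore subunit (Kcnj11 or Kcnj8) to a sulfonylurea receptor (Abcc8 or Abcc9), and Kcnj11 with Abcc8 is the pair used by beta cells. Voltage-gated and calcium-activated potassium channels then repolarise the membrane between bursts, whereas two-pore channels pass a steady leak current. Islets also hold alpha, delta and PP cells, vessels and immune cells, which use other members of the same families.

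Values are linear MAS5 signals, the summaries that Affymetrix software makes of the probes of a probe set. Signals of different probe sets depend on their probes and are not compared between genes. Each gene is given by its brightest probe set, unless another is mentioned. Signals under the 50th percentile of their array (21.7 on the knockout-labelled array and 21.6 on the control array) were raised to it before a log2 ratio was taken, always knockout-labelled over control. Where only 1 array was over this floor, the ratio is a bound, written "at least". With 1 array a group there is no test, no p-value and no error between animals for any value below. In these whole islets, fewer cells of a type and less RNA per cell cannot be told apart.

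Zbtb20 itself had 9 probe sets, 5 of them lower and 4 higher in knockout-labelled islets, with a median log2 ratio of -0.062 and a range of -0.87 to 0.54. The signals did not check the genotype label, since the removed exons are not named and no probe set was placed inside or outside them. Beta cell markers were high on both arrays, with Ins2 at 7786 in knockout-labelled and 9194 in control islets, and 0 of 6 beta cell markers differed by 2-fold. Of 4 measured acinar cell markers, 3 were at least 2-fold lower, and their summed signal was 11476 in knockout-labelled and 21896 in control islets. Of 7 macrophage markers, all 7 were higher and 3 at least 2-fold higher, with summed signals of 1117 in knockout-labelled and 677 in control islets. None of the alpha, delta and PP or endothelial markers differed by 2-fold, with median log2 ratios of -0.36 over 3, 0.016 over 3 and -0.20 over 5 genes. Of 4 lymphocyte markers, Cd3e, Cd3d and Cd2 were under the floor on both arrays. The other 1, Ptprcap, had 5.3, under the floor, in knockout-labelled and 29.2 in control islets, at least 1.35-fold lower.

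Many potassium channel genes were too dim in islets to be compared. Of the 86 genes, 48 were under the floor on both arrays in their brightest probe set and 38 (44.2%) were over it on at least 1, against 65.0% of all named genes. The 38 ratios and bounds ran from -1.31 to 2.51. Of these genes, 22 were over the floor on both arrays, with a median log2 ratio of 0.015, 12 above 0 and 10 below. For the other 16, over it on 1 array, the floor itself fixes the sign of the bound. The median over all named genes over the floor on both arrays was -0.00014. Of the 38 channel genes, 31 had a ratio or bound under 1.5-fold, though a bound under it does not show a small difference. At 1.5-fold or more, 7.89% of the channel genes were higher and 10.5% lower. Over all named genes the shares were 6.93% and 6.21%. A 2-fold limit was passed by Kcna2, which was higher, and by Kcnh1, Kcnk3 and Kcne3, which were lower. The share that was higher by 2-fold or more was 2.63% of the channel genes and 1.82% of all named genes. Lower by 2-fold or more were 7.89% of the channel genes and 1.44% of all named genes. These shares rest on 1 and 3 genes.

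**Figure D1:**
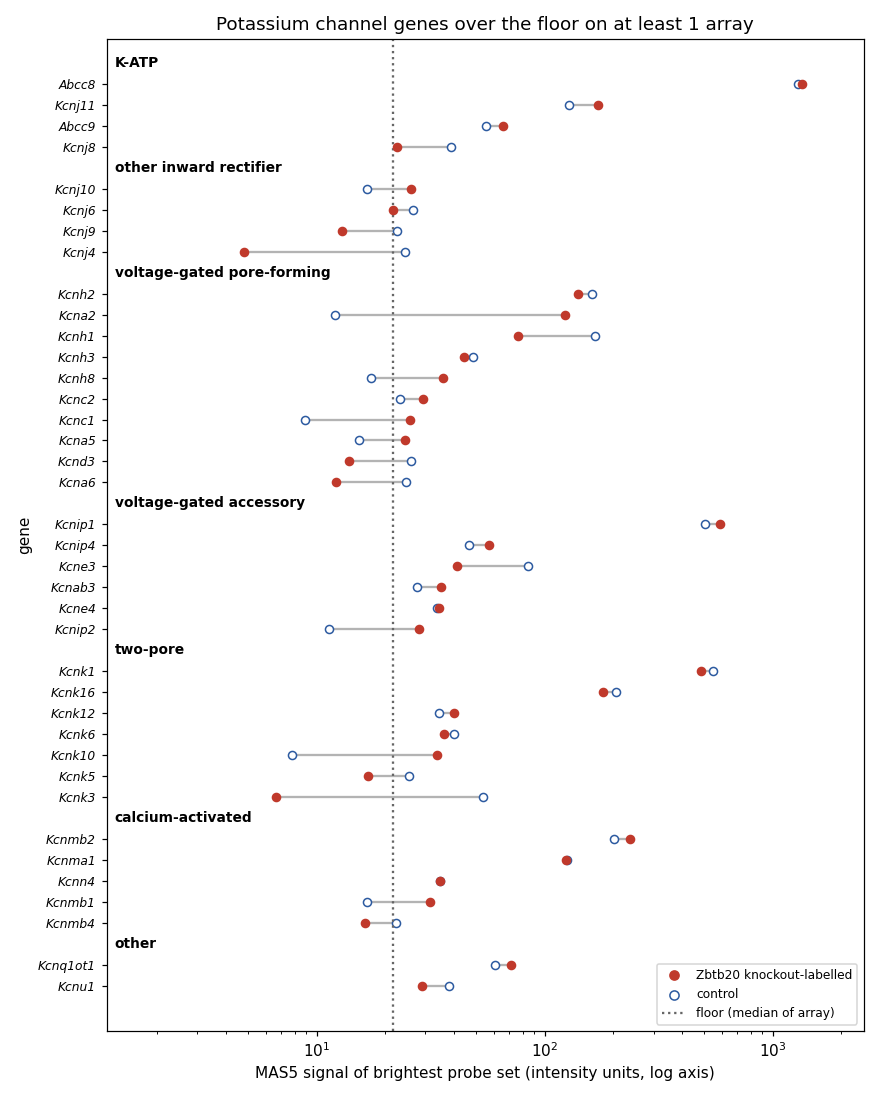
MAS5 signal (log axis) of the 38 channel genes over the floor on at least 1 array, by group, for the brightest probe set of each gene. Filled red points are the knockout-labelled array, open blue points the control array, and the dotted line is the floor. The Kcna2, Kcnk3 and Kcnj4 points lie far apart, each with 1 point under the floor, whereas the Abcc8, Kcnma1, Kcnn4 and Kcne4 points nearly coincide.

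**Figure D2:**
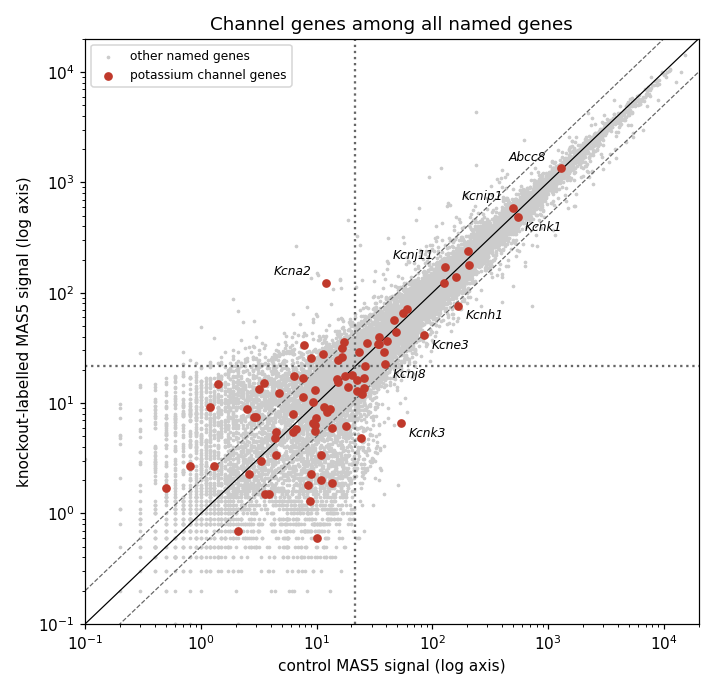
Signal in knockout-labelled islets against signal in control islets for all 18193 named genes (grey) and the 86 channel genes (red), on log axes. The solid line marks equal signals, the dashed lines 2-fold differences and the dotted lines the floor of each array. Below the floor the points scatter widely in both directions, and above it most channel genes lie between the dashed lines.

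As a guide to measurement spread, each ratio was set against the central 95% of the log2 ratios of the 1000 named genes nearest to it in signal. By construction at most 5% of the 1000 genes behind a range lie outside it, and the share over all named genes was not counted. Among the 38 channel genes 4 lay outside, and these were Kcna2, Kcnh1, Kcnk3 and Kcne3. Near the floor the size of a ratio is capped, so the dimmest genes could not lie outside. That range comes from different genes on the same pair of arrays, so it leaves out the differences between animals and preparations.

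For the genes of the beta cell K-ATP channel the arrays differed by less than 1.5-fold in the brightest probe sets. Abcc8, the sulfonylurea receptor of beta cells and the target of sulfonylurea drugs, had a signal of 1339 in knockout-labelled and 1288 in control islets (log2 ratio 0.056). Its other probe set gave 709 in knockout-labelled and 639 in control islets (0.15). Both probe sets were slightly higher in knockout-labelled islets. Kcnj11, which encodes the pore subunit, had 171 in knockout-labelled and 128 in control islets, a 1.34-fold higher signal (0.42). Its weaker probe set gave 34.0 in knockout-labelled islets and was under the floor, at 17.1, in control islets, at least 1.57-fold higher. Genes with a signal like that of the brighter probe set spread from -0.69 to 0.85, so its ratio was inside their range.

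The other K-ATP pair is best known from vessels and muscle. Abcc9, a receptor of smooth muscle and pericytes, had 65.3 in knockout-labelled and 55.5 in control islets (log2 ratio 0.23), and its other measured probe set went the opposite way, with 18.5, under the floor, in knockout-labelled and 27.6 in control islets. Kcnj8, its pore partner, had 22.6 in knockout-labelled and 38.7 in control islets, 1.71-fold lower (-0.78). The knockout-labelled value of Kcnj8 is next to the floor, and the gene has a single probe set. Genes of like signal spread from -1.07 to 1.08. The floor capped the Kcnj8 ratio short of the lower end of that range, so it could not fall outside. Mural cell and fibroblast markers, which include pericyte genes, had 6 of 7 genes over the floor, with 3 above 0, 3 below and a median log2 ratio of -0.073. Their summed signal was 438 in knockout-labelled and 433 in control islets, and without Rgs5 it was 193 in knockout-labelled and 236 in control islets. Rgs5, which marks pericytes, was at 246 in knockout-labelled and 197 in control islets, and Pdgfrb at 55.4 in knockout-labelled and 54.1 in control islets. Acta2, a smooth muscle actin, was at 47.4 in knockout-labelled and 61.2 in control islets. Cspg4, another gene of this list, was at 31.7 in knockout-labelled and 23.8 in control islets. Dcn, a fibroblast gene, was at least 2.84-fold lower, with 19.8, under the floor, in knockout-labelled and 61.6 in control islets. Most of the difference in the sum without Rgs5 was Dcn. The part of these cells in the Kcnj8 value was not tested. Over the 4 K-ATP genes, all above the floor on both arrays, the median log2 ratio was 0.15, with 3 above 0 and none at 2-fold.

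In the RefSeq annotation Kcnj11 lies next to Abcc8, and Kcnj8 next to Abcc9. The 250 bases before the start of Abcc9 and of Kcnj8 are shown because these neighbours, whose products pair in 1 channel, had ratios of opposite sign in their brightest probe sets. Capitals mark E-boxes (CANNTG, which reads the same on both strands), the element bound by basic helix-loop-helix factors. They are from RefSeq on GRCm38.p6, 5′ to 3′.
Abcc9 (chr6:142702275-142702524, - strand): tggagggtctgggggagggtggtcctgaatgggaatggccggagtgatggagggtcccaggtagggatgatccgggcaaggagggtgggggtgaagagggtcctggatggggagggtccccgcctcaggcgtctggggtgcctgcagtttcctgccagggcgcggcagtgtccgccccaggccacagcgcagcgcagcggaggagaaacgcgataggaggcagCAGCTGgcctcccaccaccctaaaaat
Kcnj8 (chr6:142571615-142571864, - strand): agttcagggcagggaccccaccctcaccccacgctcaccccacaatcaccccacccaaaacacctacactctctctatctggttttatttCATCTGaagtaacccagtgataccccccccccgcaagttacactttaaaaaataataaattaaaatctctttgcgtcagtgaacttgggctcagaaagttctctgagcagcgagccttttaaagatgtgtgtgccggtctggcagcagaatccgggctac
Each window holds 1 E-box, and 66.2% of 32536 promoter windows of this length hold at least 1. The Abcc9 window also has 1 GGGCGG or CCGCCC, present in 33.0% of all windows, and the Kcnj8 window has 0. Their GC contents were 66.8% for Abcc9 and 49.2% for Kcnj8, where the median window has 52.4%. The arrays measured transcripts and not promoter use, so the letters are given for context only.

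Among 31 voltage-gated pore-forming genes, 10 were over the floor on at least 1 array and 4 on both. Those 4 had a median log2 ratio of -0.17, with 1 above 0 and 3 below. Kcnh1, which encodes an ether-a-go-go channel known from brain and from many tumours, was lower in knockout-labelled islets in both of its probe sets. The brighter one gave 76.3 in knockout-labelled and 166 in control islets, 2.18-fold lower (-1.12). The other gave 33.2 in knockout-labelled and 83.2 in control islets (-1.33). All 4 of these values were over the floor, and genes of like signal spread from -0.77 to 0.77. Kcnh1 was the only channel gene at 2-fold with more than 1 probe set over the floor on both arrays. When 16 was added to every signal in place of a floor, its log2 ratio was -0.98, just short of the limit.

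Kcna2, a delayed rectifier of neurons and their axons, went the other way. Its brightest probe set gave 123 in knockout-labelled islets and was under the floor, at 12.0, in control islets, at least 5.71-fold higher. A second probe set gave 51.9 in knockout-labelled and 6.1 in control islets, at least 2.40-fold higher. The third was over the floor in control islets alone, with 12.5 in knockout-labelled and 24.1 in control islets, and the other one was under it on both arrays. The probe sets of Kcna2 thus differed in direction, and their log2 ratios had an SD of 1.33, the widest among the 15 channel genes with several measured probe sets. The log2 ratio was 1.21 as a mean over these probe sets and 0.88, no longer at 2-fold, with the floor at the 70th percentile. Schwann cell and neuron markers had 4 of 6 genes measured, all 4 above 0, none at 2-fold, with summed signals of 1554 in knockout-labelled and 1379 in control islets. Most of that sum was Snap25, which endocrine cells also express, and the other 3 summed to 213 in knockout-labelled and 140 in control islets. Of these, Tubb3, a neuronal tubulin, was at 83.8 in knockout-labelled and 46.5 in control islets, and Sox10, a Schwann cell factor, at 28.6 in knockout-labelled and 22.1 in control islets. Their part in the Kcna2 value was not tested.

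The same windows are shown for Kcnh1 and Kcna2, the channel genes with the 2-fold differences that more than 1 probe set recorded, again with E-boxes in capitals and from RefSeq on GRCm38.p6.
Kcnh1 (chr1:192190527-192190776, + strand): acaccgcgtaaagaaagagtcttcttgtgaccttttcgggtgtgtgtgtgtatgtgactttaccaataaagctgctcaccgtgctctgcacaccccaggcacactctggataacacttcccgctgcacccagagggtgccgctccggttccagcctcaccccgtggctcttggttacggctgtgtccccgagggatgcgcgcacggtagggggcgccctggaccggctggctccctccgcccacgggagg
Kcna2 (chr3:107101317-107101566, + strand): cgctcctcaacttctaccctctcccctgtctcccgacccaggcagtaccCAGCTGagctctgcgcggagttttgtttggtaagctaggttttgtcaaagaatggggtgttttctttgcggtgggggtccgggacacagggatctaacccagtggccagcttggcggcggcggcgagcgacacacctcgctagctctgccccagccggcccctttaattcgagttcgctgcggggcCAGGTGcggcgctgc
The Kcnh1 window holds 0 E-boxes and the Kcna2 window 2. One GGGCGG or CCGCCC lies in the Kcnh1 window and 0 in that of Kcna2, and neither holds TATAAA or TTTATA, found in 12.3% of all windows. GC content was 62.0% for Kcnh1 and 62.4% for Kcna2.

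The remaining voltage-gated pore genes had ratios or bounds under 2-fold. Kcnh2, the ERG channel that shapes repolarisation in heart and beta cells, had 140 in knockout-labelled and 162 in control islets (log2 ratio -0.21). Kcnh3 had 44.1 in knockout-labelled and 48.5 in control islets, and its other measured probe set also stood slightly below 0 (-0.14 and -0.037). Kcnc2, a fast delayed rectifier of interneurons, had 29.3 in knockout-labelled and 23.2 in control islets (0.34). These 3 genes were over the floor on both arrays. The ratios of Kcnh2 and Kcnh3 were inside the spread of genes of like signal. Kcnc2 was too near the floor for its ratio to pass that spread. Kcnh8 was at 35.9 in knockout-labelled and 17.3 in control islets, at least 1.66-fold higher. Kcnc1, a fast delayed rectifier related to Kcnc2, had 25.6 in knockout-labelled and 8.9 in control islets. Kcna5 had 24.5 in knockout-labelled and 15.4 in control islets. For Kcnd3, a transient A-type channel, the signals were 13.8 in knockout-labelled and 25.9 in control islets, and for Kcna6 they were 12.1 in knockout-labelled and 24.7 in control islets. Each of the last 4 genes was over the floor on 1 array and near it there, with bounds between 1.13-fold and 1.19-fold. The 21 pore genes under the floor included Kcnq1, the KCNQ channel named in type 2 diabetes genetics, at 17.0 in knockout-labelled and 7.6 in control islets. Kcnd2, another A-type channel, was at 1.8 in knockout-labelled and 8.5 in control islets.

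Of 12 accessory subunits of voltage-gated channels, 6 were over the floor and 5 on both arrays. Those 5 had a median log2 ratio of 0.23, with 4 above 0 and 1 below. Kcne3, a single-pass peptide that alters the gating of Kcnq1 and is abundant in epithelia, was the exception. It had 41.3 in knockout-labelled and 84.8 in control islets, 2.05-fold lower (-1.04). This is just past the spread of genes of like signal, which ran from -0.996 to 1.003, and rests on 1 probe set. With the floor at the 70th percentile the log2 ratio was -0.31. Acinar markers were lower on the same array, with Prss2 at 3013 in knockout-labelled and 6649 in control islets. Both measured duct markers were lower as well, Krt19 with 41.0 in knockout-labelled and 51.1 in control islets and Krt7 with 943 in knockout-labelled and 1134 in control islets. Their part in the Kcne3 value was not tested.

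Kcnip1, a calcium-binding partner of A-type channels, was higher in all 3 of its measured probe sets. Its brightest gave 590 in knockout-labelled and 502 in control islets (log2 ratio 0.23), and the second 537 in knockout-labelled and 401 in control islets (0.42). The third gave 45.6 in knockout-labelled islets and 21.3, under the floor, in control islets, a bound of 1.08. The size of the ratio thus differed between the probe sets, and only the weakest one reached 2-fold. Kcnab3, a cytosolic beta subunit, had 35.1 in knockout-labelled and 27.4 in control islets (0.36), and a second probe set was over the floor in knockout-labelled islets alone, with 41.7 there and 1.8 in control islets. Kcnip4 had 56.7 in knockout-labelled and 46.5 in control islets, with its 3 probe sets between -0.35 and 0.29. Kcnip2 was at 28.1 in knockout-labelled islets and under the floor, at 11.3, in control islets. Kcne4 was nearly equal, with 34.3 in knockout-labelled and 33.7 in control islets. Kcne2 and Kcnip3 were under the floor on both arrays.

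Of 12 two-pore leak channel genes, 7 were over the floor on at least 1 array and 4 on both. Those 4 had a median log2 ratio of -0.16, with 1 above 0 and 3 below. Kcnk1 had 483 in knockout-labelled and 545 in control islets (log2 ratio -0.17), but its other probe set stood at 0.058, with 292 in knockout-labelled and 281 in control islets. Kcnk16, a pancreas-enriched leak channel of beta cells, had 179 in knockout-labelled and 206 in control islets (-0.20). The signals were thus 1.13-fold lower for Kcnk1 and 1.15-fold lower for Kcnk16, inside the spread of genes of like signal. Kcnk6 had 36.2 in knockout-labelled and 40.2 in control islets, and Kcnk12 had 39.9 in knockout-labelled and 34.3 in control islets.

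Kcnk3, an acid-sensitive background channel, had a signal of 6.6, under the floor, in knockout-labelled islets and 53.7 in control islets, at least 2.47-fold lower. Genes of like signal spread from -1.21 to 1.26, which the Kcnk3 bound of -1.31, its size set by the floor, passed narrowly. Its 2 other probe sets were under the floor on both arrays, with 4.6 and 0.7 in knockout-labelled and 2.8 and 1.7 in control islets, so a single probe set carried the difference. With the floor at the 70th percentile the gene was under it on both arrays and had no ratio, and at the 30th percentile its log2 ratio was -2.64. In the opposite direction Kcnk10, a mechanosensitive leak channel, was at 33.7 in knockout-labelled islets and, under the floor, at 7.8 in control islets, at least 1.56-fold higher. Its other probe set was under the floor on both arrays, with 8.0 in knockout-labelled and 15.4 in control islets. Kcnk5 had 16.8, under the floor, in knockout-labelled and 25.5 in control islets. Kcnk2, a channel also activated by stretch and lipids, was under the floor, at 1.5 in knockout-labelled and 3.9 in control islets.

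For calcium-activated channels 5 of 8 genes were measured, some of them only as a bound, and none was at 2-fold. The 3 genes over the floor on both arrays had a median log2 ratio of 0.0042. Kcnma1, the pore of the large-conductance BK channel, had 124 in knockout-labelled and 126 in control islets (-0.023). Its 3 other measured probe sets lay between -0.27 and 0.31, on both sides of 0. Kcnmb2, a BK beta subunit, was higher in both probe sets, with 237 in knockout-labelled and 202 in control islets in the brighter one (0.23). The other gave 229 in knockout-labelled and 166 in control islets (0.46). Kcnmb1, the smooth muscle beta subunit, had 31.5 in knockout-labelled islets and 16.7, under the floor, in control islets, at least 1.46-fold higher. Kcnmb4, the beta subunit best known from brain, had 16.3, under the floor, in knockout-labelled and 22.3 in control islets. Kcnn4, the intermediate-conductance channel of islets and blood cells, was at 34.7 in knockout-labelled and 34.6 in control islets. The small-conductance genes Kcnn2 and Kcnn3 were under the floor on both arrays. For Kcnn1 the brightest probe set was also under it (17.7 in knockout-labelled and 17.7 in control islets), but a second one had 8.8 in knockout-labelled and 31.6 in control islets, at least 1.46-fold lower.

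Inward rectifiers outside the K-ATP group were hardly measured. Of 13 genes, 4 were over the floor on 1 array and 0 on both in their brightest probe set. Kcnj6, a G protein-gated channel that hormones and adrenaline open in beta cells, had 21.5 in knockout-labelled and 26.4 in control islets, and its second probe set 22.3 in knockout-labelled and 24.2 in control islets. Kcnj4 was at 4.8 in knockout-labelled and 24.4 in control islets, and Kcnj9 at 12.9 in knockout-labelled and 22.5 in control islets. Kcnj10, a glial channel, was at 26.0 in knockout-labelled and 16.7 in control islets. The highest of these signals was 26.4, close to the floor. Of the 6 members outside these groups, 2 were measured. Kcnq1ot1, an imprinted noncoding RNA transcribed antisense to Kcnq1, had 71.2 in knockout-labelled and 60.3 in control islets (log2 ratio 0.24). Kcnu1, a sperm channel in mice, had 28.9 in knockout-labelled and 38.1 in control islets (-0.40).

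**Figure D3:**
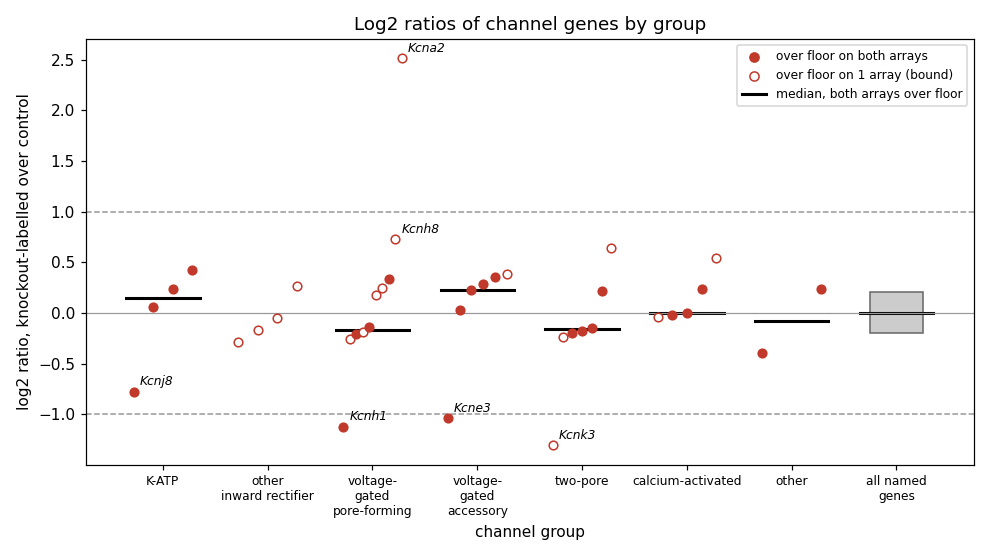
Log2 ratio, knockout-labelled over control, of the measured channel genes by group. Filled points were over the floor on both arrays and open points on 1 array, black bars are medians of the filled points (for all named genes, of those over the floor on both arrays), dashed lines mark 2-fold, and the grey box holds the middle 50% of those named genes. Group medians run from -0.17 (voltage-gated pore-forming) to 0.23 (voltage-gated accessory), the other inward rectifiers have none, and Kcna2 stands far above all other points.

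Among genes that both arrays placed over the floor, the group medians were 0.15 for K-ATP (4 genes), -0.17 for voltage-gated pore-forming (4 genes), 0.23 for voltage-gated accessory (5 genes), -0.16 for two-pore (4 genes) and 0.0042 for calcium-activated genes (3 genes). No other inward rectifier gene was over the floor on both arrays, so that group has no such median. The middle 50% of all named genes over the floor on both arrays lay between -0.20 and 0.20. The order of these medians rests on few genes, and the accessory median was -0.037 with the floor at the 70th percentile, where genes over it on 1 array also count. Within the voltage-gated pore group the ratios and bounds ran from -1.12 to 2.51.

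Genes with several probe sets show how far probe sets of 1 gene differ on the same pair of arrays, bounds included. They read the same RNA, so this leaves out the differences between animals and preparations. Of 15 channel genes with at least 2 measured probe sets, 9 had all of them on the same side of 0 and 6 had both signs. Over all named genes with at least 2, the numbers were 2596 and 2888. The median SD among probe sets of a gene was 0.18 for these channel genes and 0.23 for 5484 named genes. A log2 ratio of the size seen for Abcc8, Kcnma1 or Kcnk1 was therefore smaller than the spread among probe sets of a gene, and that of Kcnh1 was larger. Over single probe sets, 3 of 60 measured channel probe sets were higher by 2-fold or more and 4 were lower by as much. Of all measured 1-gene probe sets, 1.88% were that much higher and 1.29% that much lower. The 3 higher ones belonged to Kcna2 and Kcnip1, and the 4 lower ones to Kcnh1, Kcne3 and Kcnk3.

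**Figure D4:**
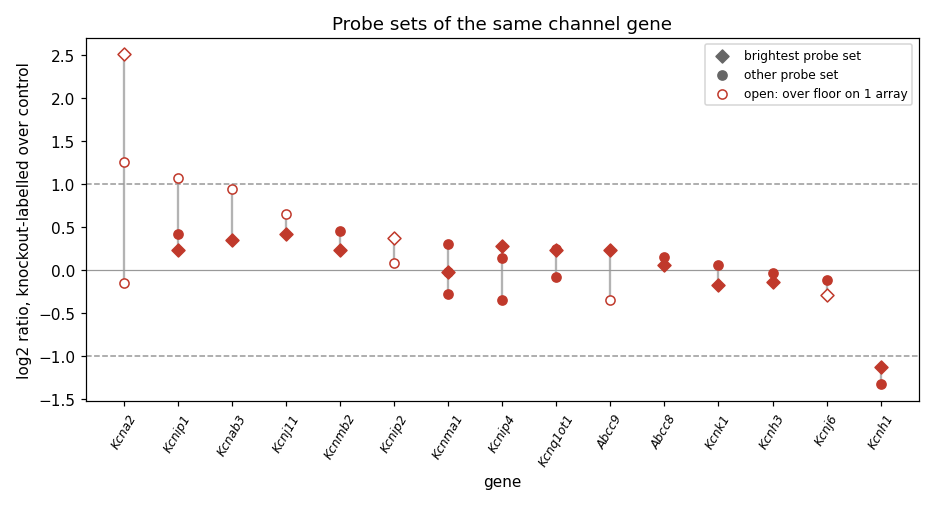
Log2 ratios, knockout-labelled over control, of all measured probe sets for the 15 channel genes with at least 2. Diamonds are the brightest probe set, circles the others, open symbols were over the floor on 1 array, and dashed lines mark 2-fold. Both Kcnh1 probe sets lie below the lower dashed line, whereas the Kcna2 probe sets span from -0.15 to 2.51.

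Genes that act before and after the channels in glucose-stimulated secretion were looked at as lists. Of 11 measured genes that carry glucose metabolism to the K-ATP channel, 0 were at 2-fold, 4 were above 0 and 7 below, and the median log2 ratio was -0.13. Slc2a2, the glucose transporter of mouse beta cells, had 396 in knockout-labelled and 276 in control islets (0.52). The glycolytic enzyme gene Pfkl had 672 in knockout-labelled and 1115 in control islets (-0.73). Of 13 genes of voltage-gated calcium channels with a probe set, 8 were over the floor, 0 of them at 2-fold, with 1 above 0, 7 below and a median of -0.13. For Cacnb1 and Cacna2d3, counted among the 7 below, the floor fixed the sign, as they were over it on the control array alone. The 1 gene above 0, Cacna1b, had the largest ratio of this list. It was at 43.2 in knockout-labelled and 27.6 in control islets (0.65). Of all named genes over the floor on at least 1 array, 5914 were above 0 and 5879 below. Cacna1d, a pore of the L-type calcium channels of beta cells, had 94.7 in knockout-labelled and 137 in control islets (-0.53). Cacna1c, the other such pore, had 62.1 in knockout-labelled and 64.7 in control islets (-0.059). Genes that move or regulate potassium channels had 14 of 18 over the floor, none at 2-fold, 6 above 0, 8 below and a median of -0.054. Among them Dpp6, a partner of A-type channels, had 53.4 in knockout-labelled and 31.0 in control islets (0.78). Dpp10, a related partner, went the other way, with 21.1, under the floor, in knockout-labelled and 28.6 in control islets, at least 1.32-fold lower. The floor fixed the sign for Dpp10 and Rapgef3, which were over it on the control array alone.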

How the data were processed

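Total islet RNA was hybridised to Affymetrix arrays, 1 for knockout-labelled and 1 for control islets. The deposited values are linear intensities, named as MAS5 signals per the submitters' processing notes. The MAS5 version, scaling target, background step and detection calls are not stated in the sources used here. The array medians were 21.7 (knockout-labelled) and 21.6 (control), and the intensities were used with no further normalization. The number of arrays limits the precision.

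Genes came from the platform annotation, which is dated. It gave 34945 of 45037 probe sets 1 gene, 932 several and 9160 none. All 86 member genes matched the RefSeq table by Entrez identifier, and 0 symbols changed. Channel groups, gene lists, the 2-fold limit and the naming rule were chosen with earlier results of these data known. The rule names the K-ATP genes, 19 preset islet channel genes (16 with a probe set), the 4 brightest genes and 3 largest ratios each way in each group, and all genes at 2-fold. Genes outside it are named after their values were seen. Ratios, the floor and the gene choice were computed with Python 3.11.15, numpy 2.4.6 and pandas 2.3.3. The procedure was tested on simulated data, with differences planted only in genes well over the floor on both arrays. That test therefore did not cover ratios near the floor or bounds. Alternatives were scaling by the median, quantile and loess normalization, other floors, a pseudocount, other probe set rules and other fold limits.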

Additional observations from a re-analysis of the deposited data

How the results depend on the processing

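No paired analysis was possible because each group has 1 array. The counts of channel genes at the fold limit followed the floor. With the floor at the 30th percentile 6 of 69 measured channel genes were higher and 6 lower (8.70% each, with 4.51% and 4.17% of all named genes), and 80.2% of the channel genes were over the floor. With the floor at the 70th percentile 0 of 12 were higher and 1, Kcnh1, was lower (8.33%, with 1.17% higher and 0.783% lower over all named genes), and 14.0% were over the floor. There the medians, genes over the floor on 1 array included, were -0.21 for voltage-gated pore-forming and -0.037 for accessory genes, against 0.022 and 0.26 at the 50th percentile. Two-pore genes had the lowest of these medians at the 50th percentile (-0.17). At the 70th percentile voltage-gated pore-forming genes were lower (-0.21), and the other inward rectifiers had no median. Under a pseudocount of 16 the other inward rectifiers were lower (-0.18). With no floor and a pseudocount of 16, Kcna2 and Kcnk10 were higher by 2-fold and Kcnk3 alone lower (2.33% and 1.16% of 86, with 1.44% and 1.10% of all named genes), with Kcnh1 just short of the limit at -0.98. A limit of 1.5-fold gave 3 higher and 4 lower (7.89% and 10.5% of 38, with 6.93% and 6.21% of all named genes). A limit of 3-fold gave 1 higher (Kcna2) and 0 lower, with 0.431% and 0.144% of all named genes. Under division by the array median, quantile normalization, loess and both other probe set rules, the genes at 2-fold were again Kcna2 higher and Kcnh1, Kcnk3 and Kcne3 lower. Of the 55 medians recomputed, for the groups and for all members together, 53 moved by less than the median SD among probe sets of a gene (0.23). Division by the nearly equal array medians could hardly move them. No gene at 2-fold changed sign, but where Kcna2 or Kcnk3 was over the floor on 1 array only, the floor itself fixed the sign. The ratio of Kcna2 ranged from 0.88 (floor at the 70th percentile) to 3.36 (30th percentile) and was 1.21 as a mean over its probe sets. That of Kcnk3 ranged from -2.64 to -1.29 in the settings that gave it a value, and that of Kcne3 was -0.31 with the floor at the 70th percentile. A bound takes its size from the floor by construction. Signals near the floor limit what can be said of 16 of the 38 measured genes, which were over it on 1 array only.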
